A study of Rattus norvegicus with 19 samples.

Results

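10 genes of the extracellular matrix that do not encode collagens were followed across rat nerve tumours and untreated nerve. They were the proteoglycans Vcan, Dcn, Bgn and Lum and the glycoproteins Postn, Tnc, Fn1, Spp1, Sparc and Efemp1, chosen by gene symbol alone. The arrays held 1 probe each for 9 of the 10 genes, and each of these probes was detected on all 19 arrays. The arrays carried no probe named for Tnc, which was therefore left out. The 9 genes belonged to 11796 features tested in all, taken from 21791 probes.

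The samples came from the trigeminal nerve, the cranial nerve that carries sensation from the face. There were 12 malignant peripheral nerve sheath tumours (MPNST) of adult rats, 1 microtumour and 6 pools of untreated nerves from animals 85 days old. The tumours arose in rats that had received the alkylating agent N-ethyl-N-nitrosourea (ENU) on postnatal day 1, at 80 µg per g. Of the MPNST, 2 came from BDIV rats, 2 from BDIX rats, 1 from the congenic strain BDIX.BDIV-Mss4a and 7 from F1 hybrids of BDIV and BDIX, with 6 males and 6 females. The microtumour was from a congenic male. BDIV, the congenic strain and BDIX each gave a male and a female nerve pool, so that F1 hybrids had no nerve pool. A tumour array held 1 tumour and a nerve array held pooled nerves, so an error given for nerve describes pools and not animals. In such whole tissue, fewer cells of a type and less RNA per cell cannot be told apart.

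The share of probes detected per array was 44.1% to 54.1%. Background formed separate ranges, with a 25th percentile of raw signal of 80.4 to 94.6 on 11 arrays and of 59.0 to 67.5 on 8 arrays. The high range held 9 MPNST and the 2 congenic nerve pools. The low range held the other 3 MPNST (both BDIV tumours and 1 F1-hybrid tumour), the microtumour and the 4 BDIX and BDIV pools. The labels of nerve 5 and nerve 6, both BDIV pools, were exchanged between the raw and the processed tables of the authors, which leaves the mean of the BDIV pools as it is. Sensory neuron markers were far lower in the MPNST, with a mean log2 level over 8 genes of -5.63 to -3.35 relative to the nerve mean.

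The matrix between cells is a hydrated mesh of collagen fibres, proteoglycans and adhesive glycoproteins. Proteoglycans carry long sulphated sugar chains: the large versican (Vcan) binds hyaluronan, while the small leucine-rich proteoglycans decorin (Dcn), biglycan (Bgn) and lumican (Lum) bind collagen fibrils. Fibronectin (Fn1) and periostin (Postn) are ligands of integrins, osteopontin (Spp1) binds integrins and CD44, SPARC binds collagen, and fibulin-3 (Efemp1) is a fibulin of the matrix. In peripheral nerve these proteins are laid down in the connective tissue sheaths around and between the fibres.

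RefSeq promoter sequences of the GRCr8 assembly were at hand for 7 of the 10 genes. The 250 bases before the start site are shown for 4 genes, those with the largest higher and the largest lower differences in the tumours, to set them side by side. The letters searched on both strands were TATAAA (the TATA box), CCAAT (the CCAAT box) and TGANTCA (the AP-1 motif, which reads the same on both strands), and capitals mark their matches. The Vcan window lies at chr2:22595956-22596205 on the minus strand, Postn at chr2:140677811-140678060 on the plus strand, Spp1 at chr14:5619805-5620054 on the minus strand and Efemp1 at chr14:106811614-106811863 on the plus strand.
Vcan: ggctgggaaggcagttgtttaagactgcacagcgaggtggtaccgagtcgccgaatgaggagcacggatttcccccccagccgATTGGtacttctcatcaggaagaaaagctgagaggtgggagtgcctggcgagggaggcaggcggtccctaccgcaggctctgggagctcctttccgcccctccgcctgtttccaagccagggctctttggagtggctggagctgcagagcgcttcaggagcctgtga
Postn: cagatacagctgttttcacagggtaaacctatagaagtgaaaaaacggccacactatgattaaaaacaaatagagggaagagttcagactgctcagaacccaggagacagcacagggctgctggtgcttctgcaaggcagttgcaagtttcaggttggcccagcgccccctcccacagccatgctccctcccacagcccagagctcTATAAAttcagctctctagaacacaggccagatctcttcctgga
Spp1: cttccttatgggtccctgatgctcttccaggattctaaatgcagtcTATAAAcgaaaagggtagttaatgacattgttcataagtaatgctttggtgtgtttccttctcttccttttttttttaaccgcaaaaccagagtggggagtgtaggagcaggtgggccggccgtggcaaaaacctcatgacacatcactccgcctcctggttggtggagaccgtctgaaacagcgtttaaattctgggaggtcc
Efemp1: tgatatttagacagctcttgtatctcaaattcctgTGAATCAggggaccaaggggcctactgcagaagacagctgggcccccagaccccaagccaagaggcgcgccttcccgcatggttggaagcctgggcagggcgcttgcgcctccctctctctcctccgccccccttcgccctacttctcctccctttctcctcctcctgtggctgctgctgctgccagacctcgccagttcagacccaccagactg
Vcan had 1 CCAAT on the opposite strand, 167 bases before the start. Postn had TATAAA 44 bases before it and Spp1 had TATAAA 204 bases before it. Efemp1 had a TGANTCA 215 bases before it. Among 33465 rat promoters of the same length, TATAAA occurred in 12.9%, CCAAT in 34% and TGANTCA in 6.34%. These matches describe the letters of the window only.

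In the tumours, Vcan and Postn were the genes of the group with the largest excess over nerve, and Efemp1 and Spp1 those with the largest deficit. By limma's moderated test, 7 of the 9 genes passed an adjusted p of 0.05 between MPNST and nerve, 3 of them higher and 4 lower. Of all 11796 features, 45.4% passed the same test, 24.6% higher and 20.8% lower, so passing it was common. Higher calls were 54.2% of all calls, and 31.2% when arrays were scaled by their medians instead of quantile normalized, while 7 of the 9 genes passed with either scaling. The median difference of the 9 genes was 0.28 on the log2 scale, and that of all features was 0.02. All values below are normalized log2 signals of 1 probe, and each difference is of such log2 values. Because the normalization pulls dim signals together, a fold against a dim group understates the change in signal.

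**Figure D1:**
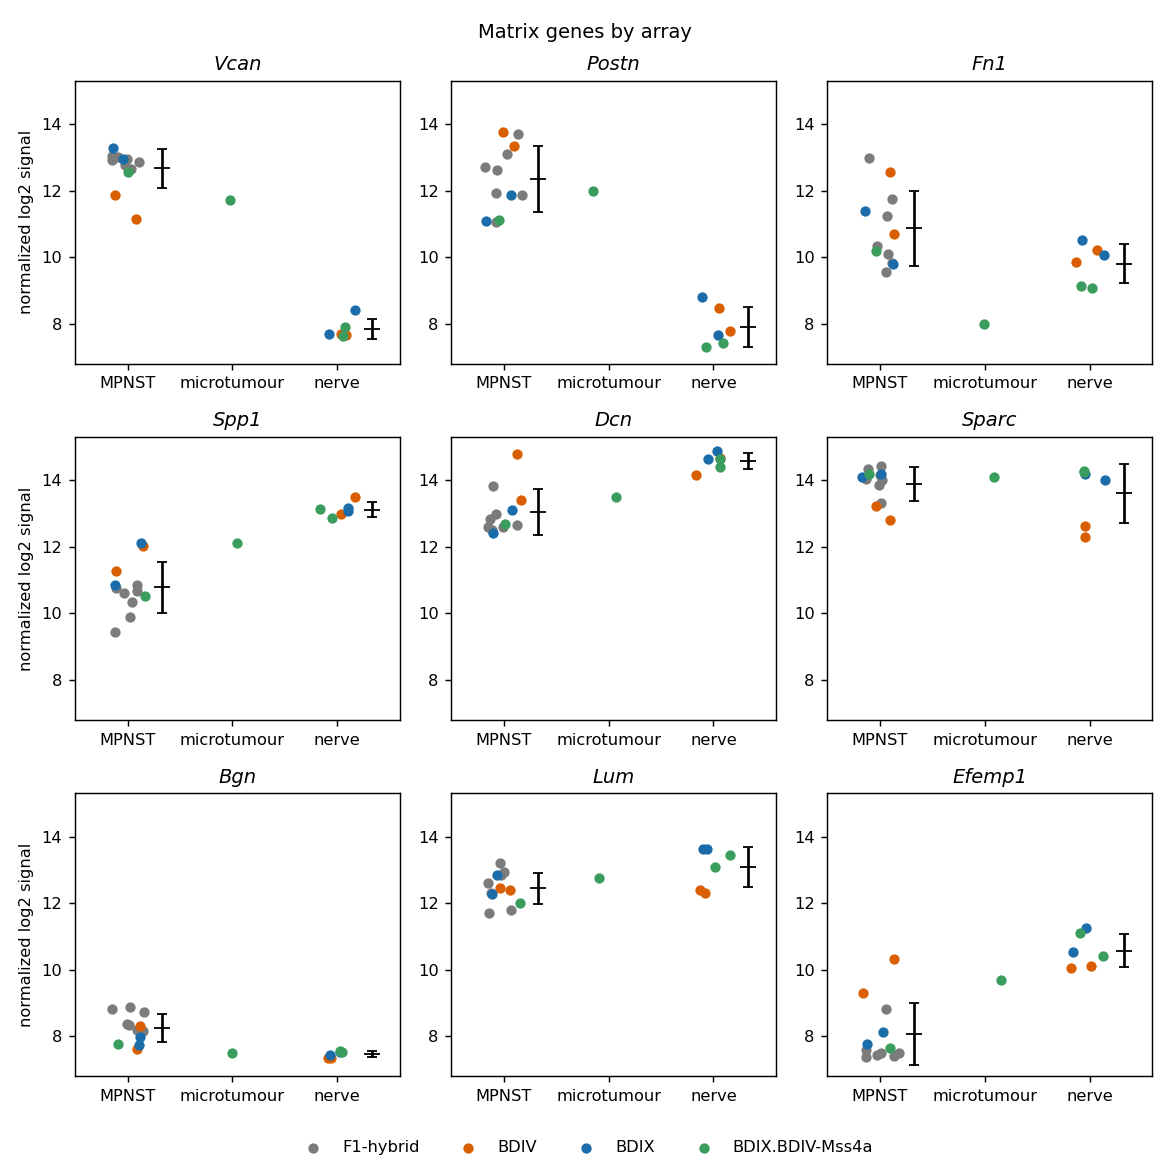
Normalized log2 signal (vertical axis) of 9 matrix genes on each of the 19 arrays, with a point per array coloured by strain, in the 12 MPNST, the microtumour and the 6 nerve pools; the bars beside MPNST and nerve show mean ± SD. Vcan, Postn and Bgn lie higher in every MPNST than in every nerve pool and Spp1 lies lower in every MPNST, while the other 5 genes overlap.

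Vcan encodes the large chondroitin sulphate proteoglycan that fills the matrix around moving cells. Its log2 signal was 11.16 at the lowest, 12.91 at the median and 13.29 at the highest among the MPNST, against 7.63, 7.70 and 8.42 among the nerve pools. Every tumour lay above every pool. The mean was 12.67 ± 0.59 in MPNST (SD, n = 12) and 7.84 ± 0.30 in nerve (SD, n = 6), a difference of 4.84 ± 0.25 (SE), or 28.6-fold. The adjusted p of limma's test was 1.98e-10. Ranked over all features by the difference, Vcan was number 3 among the higher ones.

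Postn encodes periostin, a secreted matricellular protein of the fasciclin family that links collagen, fibronectin and integrins. The MPNST had log2 signals from 11.06 through a median of 12.29 to 13.76, against 7.29, 7.72 and 8.80 in the nerve pools. The groups did not overlap. The means were 12.36 ± 1.00 in MPNST (SD, n = 12) and 7.91 ± 0.60 in nerve (SD, n = 6). The difference was 4.45 ± 0.43 (SE), or 21.8-fold, with an adjusted p of 3.7e-07 by limma, and ranked number 4. Postn also moved with the background range: with the tissue groups held constant, the low-background arrays were 1.36 ± 0.33 higher (SE, limma adjusted p = 0.00677). Of the 9 genes, Postn and Sparc (-0.86 ± 0.27 SE, adjusted p = 0.0261) differed between the ranges, as 26.3% of all features did. All BDIV arrays were of the low range, so strain and background are not balanced in this comparison. In the low range Sparc was 12.30 to 13.22 on BDIV arrays and 13.87 to 14.18 on the others. In the high range it was 13.33 to 14.45.

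Bgn, the small proteoglycan biglycan, was dim throughout, with raw signals between 141 and 587. Its log2 signal was 7.62 at the lowest, 8.25 at the median and 8.87 at the highest in the MPNST, against 7.34, 7.47 and 7.54 in the nerve pools. The groups stood apart by a narrow gap. The difference was 0.78 ± 0.17 (SE), a 1.72-fold higher mean, with a limma adjusted p of 0.00118. Its call was lost within each background range, where the differences were 0.77 ± 0.30 (SE, high range, adjusted p = 0.0826) and 0.63 ± 0.17 (SE, low range, adjusted p = 0.0547). With sex and strain as covariates the difference was 0.43 ± 0.16 (SE) and did not pass (adjusted p = 0.051).

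Spp1 encodes osteopontin, a phosphorylated glycoprotein that macrophages, bone cells and some neurons secrete. The MPNST had log2 signals of 9.44 at the lowest, 10.73 at the median and 12.13 at the highest, against 12.87, 13.12 and 13.50 in the nerve pools. Every tumour was below every pool. The means were 10.78 ± 0.77 in MPNST (SD, n = 12) and 13.13 ± 0.21 in nerve (SD, n = 6). The difference was -2.34 ± 0.31 (SE), or 5.07-fold lower in MPNST, with a limma adjusted p of 1.25e-05. Beside it, all 8 tested sensory neuron markers fell in MPNST, with a median difference of -4.73, and 5 of 8 macrophage markers rose, with a median difference of 1.04. Of 3 tested cartilage and bone markers 2 fell, with a median difference of -0.52. Of 7 tested Schwann cell and myelin markers 5 fell and 2 rose, with a median difference of -0.61. The level of that list was -1.93 to -0.56 in MPNST and -0.50 to 0.70 in the pools. The level of the macrophage list was 0.67 to 1.85 above the nerve mean in MPNST and -0.54 to 0.26 in the pools. The part of these cell types in the result was not tested.

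Efemp1, which encodes fibulin-3, showed the largest deficit in the tumours. Its log2 signals in the MPNST were 7.37 at the lowest, 7.62 at the median and 10.33 at the highest, against 10.05, 10.47 and 11.24 in the nerve pools. The groups overlapped through a single BDIV tumour at 10.33. The other BDIV tumour had 9.30, and the remaining 10 MPNST had 7.37 to 8.83. These 10 were dim, with raw signals of 122 to 405. The means were 8.07 ± 0.94 in MPNST (SD, n = 12) and 10.57 ± 0.50 in nerve (SD, n = 6), a difference of -2.50 ± 0.40 (SE), or 5.67-fold lower in MPNST. The adjusted p was 7.7e-05 by limma. Within the low-background arrays, where 2 of the 3 tumours were BDIV, the difference was -1.48 ± 0.74 (SE) and did not pass (adjusted p = 0.198).

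Decorin (Dcn) restrains collagen fibril growth and binds growth factors. Its log2 signals were 12.43 at the lowest, 12.76 at the median and 14.80 at the highest in the MPNST, against 14.17, 14.66 and 14.88 in the nerve pools. The overlap again came from 1 BDIV tumour, at 14.80. The difference was -1.53 ± 0.29 (SE), a 2.90-fold lower mean in MPNST (limma adjusted p = 0.000318). Within the low-background arrays it was -0.86 ± 0.45 (SE) and did not pass (adjusted p = 0.222).

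Lum, the keratan sulphate proteoglycan lumican, is the direct neighbour of Dcn on chromosome 7. The MPNST ranged from 11.72 through a median of 12.43 to 13.21, against 12.31, 13.27 and 13.64 in the nerve pools, so the groups overlapped widely. The difference was -0.64 ± 0.25 (SE), or 1.56-fold lower in MPNST, and passed narrowly (limma adjusted p = 0.0438). The call was lost when any of 12 of the 18 arrays was left out in turn, with adjusted p of 0.0511 to 0.114 in those cases. It was also lost under 7 of 17 other settings. Among these were the high-background arrays alone (adjusted p = 0.142), the low-background arrays alone (0.329) and sex and strain as covariates (0.107). The replicate number as a block was another (-0.61, adjusted p = 0.168).

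Beside the lower means of Dcn, Efemp1 and, with a call that was often lost, Lum, 3 of 9 tested fibroblast markers fell in MPNST. Of the others 1 rose and 5 did not pass. The level of that list relative to the nerve mean was -1.34 to -0.38 in MPNST and -0.26 to 0.32 in the nerve pools. The markers that fell were Mfap5 (-2.89), Thy1 (-2.46) and Gsn (-1.75), and Dpt rose (0.73). Of those that did not pass, the fibrillar collagen genes Col1a1, Col1a2 and Col3a1 differed by -0.05, 0.02 and 0.33. Pdgfra differed by -0.87 and Pi16 by 0.03. All 3 tested perineurial markers fell, with list levels of -1.37 to -0.64 in MPNST against -0.51 to 0.62 in the pools. The part of either cell type in the result was not tested.

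Fn1 and Sparc did not pass. Fn1 encodes fibronectin, the adhesive glycoprotein on which many other matrix proteins assemble. Its log2 signals in the MPNST ran from 9.57 through a median of 10.51 to 12.98, against 9.09, 9.96 and 10.52 in the nerve pools, and overlapped. The difference was 1.06 ± 0.48 (SE), with a limma adjusted p of 0.0809 and a 95% confidence interval of 0.05 to 2.06 before adjustment. With the background range as a block it was 1.501 ± 0.46 (SE) and passed (adjusted p = 0.0141). Sparc, which encodes a calcium-binding matricellular protein, had 12.82, 14.08 and 14.45 in the MPNST as lowest, median and highest, against 12.30, 14.10 and 14.27 in the pools. Its difference was 0.28 ± 0.31 (SE), with an adjusted p of 0.478 by limma and an interval of -0.38 to 0.95. With the background range as a block the sign turned, to -0.07 ± 0.28 (SE).

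**Figure D2:**
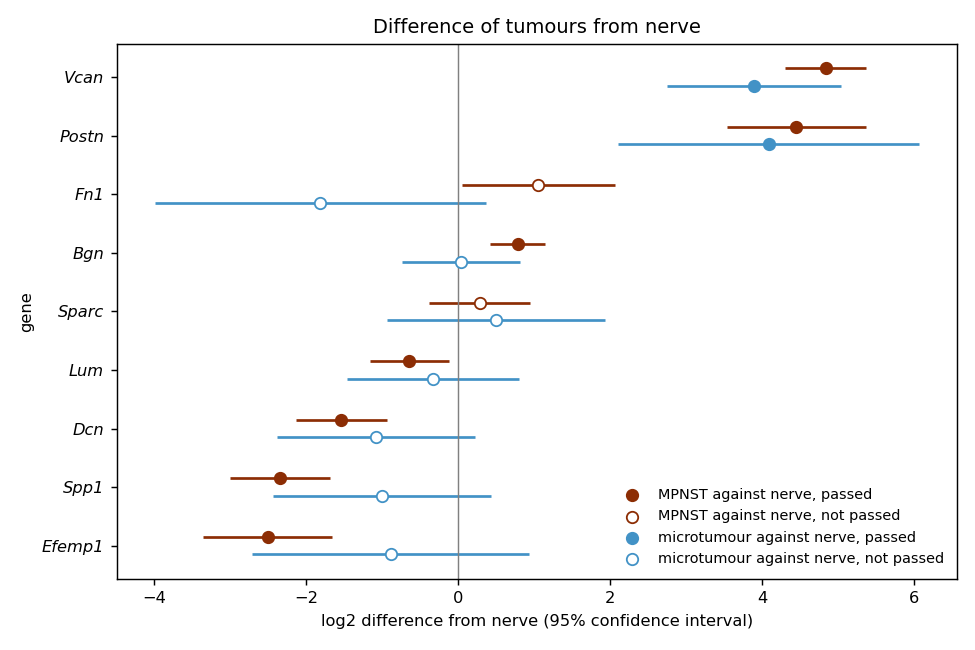
Log2 difference from nerve (horizontal axis, with 95% confidence interval) of the 9 genes, for MPNST and for the microtumour; filled points passed limma's adjusted p of 0.05 and open points did not. Vcan at 4.84 and Postn at 4.45 lead the MPNST differences and also pass for the microtumour, and Efemp1 at -2.50 and Spp1 at -2.34 lie at the other end.

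Of the 9 genes, 4 had MPNST and nerve arrays that did not overlap, 3 higher and 1 lower in MPNST, where 17% of all features had none (8.38% higher and 8.59% lower). The differences of Vcan, Postn and Spp1 passed both within the 11 high-background arrays and within the 8 low-background arrays. Vcan differed by 5.16 ± 0.16 in the high range and 4.06 ± 0.41 in the low range (SE). Postn differed by 4.58 ± 0.53 in the high range and 5.43 ± 0.32 in the low range (SE). Spp1 differed by -2.40 ± 0.52 in the high range and -1.87 ± 0.32 in the low range (SE). The pools of the high range were congenic only, while 1 of its 9 tumours was congenic, so strain and tissue are not balanced within it.

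The microtumour, a single lesion of a congenic male, was set against nerve and against the MPNST in the same fit, on the assumption that it varies like the other arrays. Against nerve, 2 of the 9 genes passed, where 3.04% of all features passed (1.83% higher and 1.21% lower). Vcan was 11.73 in the microtumour, a difference of 3.89 ± 0.54 (SE) and 14.8-fold (limma adjusted p = 0.000685). Postn was 11.996, a difference of 4.09 ± 0.94 (SE) and 17.0-fold (limma adjusted p = 0.0244). Both lay above all 6 nerve pools and within the range of the MPNST. Among the low-background arrays alone the Vcan difference was 3.85 ± 0.60 (SE) and did not pass (adjusted p = 0.055).

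The genes that were lower in MPNST did not pass in the microtumour. Spp1 was 12.13 there, a difference from nerve of -1.0005 ± 0.68 (SE), and Dcn was 13.50, a difference of -1.08 ± 0.62 (SE). Efemp1 was 9.69, a difference of -0.88 ± 0.86 (SE). All 3 values were below every nerve pool. Lum, Sparc and Bgn lay within the range of the pools, with differences of -0.33, 0.50 and 0.04. With the nerve mean set to 0 and the mean of the tumours to 1, the microtumour stood at 0.80 for Vcan, 0.92 for Postn, 0.70 for Dcn, 0.43 for Spp1 and 0.35 for Efemp1. In the same sample the log2 level of the sensory neuron markers was -0.96 relative to the nerve mean, while it was -5.63 to -3.35 in the MPNST.

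Fn1 stood apart in the microtumour. Its log2 signal was 8.003, below the lowest MPNST at 9.57 and below the lowest nerve pool at 9.09. The difference from the MPNST was -2.87 ± 0.99 (SE) and did not pass over all features (limma adjusted p = 0.159), nor did the difference from nerve of -1.81 ± 1.03 (SE, adjusted p = 0.47). Against the MPNST none of the 9 genes passed by limma, where 2.72% of all features passed and 1701 had an unadjusted p under 0.05. Besides Fn1, the other differences from the MPNST over 0.7 in size were Efemp1 at 1.62 ± 0.83, Spp1 at 1.34 ± 0.65, Vcan at -0.95 ± 0.52 and Bgn at -0.75 ± 0.36 (SE). The microtumour lay outside the range of the 12 MPNST for 2 of 9 genes (Fn1 and Bgn), where 30.8% of all features did, and outside the range of the 6 pools for 6 of 9, where 44.3% did. Without the 2 BDIV tumours, a setting chosen after the data were seen, Vcan (-1.18) and Efemp1 (1.97) passed against the MPNST.

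Strain differences were then examined, first in untreated nerve. In BDIV pools Sparc was lower than in BDIX pools, at 12.30 and 12.64 against 14.01 and 14.18. The congenic pools had 14.26 and 14.27, near the BDIX pools. The difference between BDIV and BDIX was -1.62 ± 0.10 (SE), or 3.08-fold lower in BDIV, with a limma adjusted p of 0.0196. Lum was lower as well, at 12.31 and 12.39 in BDIV pools against 13.63 and 13.64 in BDIX pools, a difference of -1.29 ± 0.13 (SE, limma adjusted p = 0.0308). Of the 9 genes these 2 passed, where 13.4% of all features did (6.51% higher and 6.89% lower). All marker lists but that of macrophages separated the same pools, relative to the mean of all pools. The fibroblast list was at -0.26 and -0.23 in BDIV pools against 0.32 and 0.27 in BDIX pools, and the perineurial list at -0.41 and -0.51 against 0.34 and 0.62 in BDIX pools. The Schwann cell and myelin list was at -0.50 and -0.40 in BDIV pools against 0.32 and 0.70 in BDIX pools, and the sensory neuron list at 0.57 and 0.58 against -0.49 and -0.26 in BDIX pools. The blood list was at -1.64 and -1.11 in BDIV pools against 0.42 and 0.73 in BDIX pools. The endothelial list was at -0.49 and -0.40 in BDIV pools against 0.06 and 0.11 in BDIX pools. Adipocyte and pericyte lists were lower in BDIV pools too, while skeletal muscle and cartilage and bone lists were higher. The part of these lists in the Sparc and Lum differences was not tested.

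Efemp1 (-0.81 ± 0.25, adjusted p = 0.147) and Dcn (-0.34 ± 0.10, adjusted p = 0.127) were lower in the BDIV pools without passing limma's test (SE). Against the BDIX pools, the congenic pools passed for none of the 9 genes by limma, where 2.59% of all features passed (1.13% higher and 1.46% lower) and 2980 had an unadjusted p under 0.05. The largest difference was that of Fn1, at 9.09 and 9.13 in congenic pools against 10.07 and 10.52 in BDIX pools (-1.19 ± 0.24 SE, adjusted p = 0.112). The congenic pools were of the high and the BDIX pools of the low background range, so strain and background cannot be told apart there. With 2 pools to a strain, leaving out 1 pool in turn ended the Lum call in 4 of 4 cases and the Sparc call in 3 of 4.

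Among the MPNST, strain was tested across BDIV, BDIX and F1-hybrid tumours with sex as a covariate. Vcan and Efemp1 passed limma's F test, 2 of 9 genes where 2.66% of all features did. Vcan was 11.16 and 11.87 in the BDIV tumours, against 12.94 and 13.29 in the BDIX tumours and 12.65 to 13.05 in the 7 F1-hybrid tumours. BDIV tumours lay below all other MPNST, by 1.42 ± 0.17 (SE) relative to F1 hybrids. The F test across the strains had an adjusted p of 0.0197 by limma. Efemp1 was 9.30 and 10.33 in the BDIV tumours, against 7.76 and 8.12 in the BDIX tumours and 7.37 to 8.83 in the F1-hybrid tumours. Its difference between BDIV and F1 hybrids was 1.98 ± 0.27 (SE), and limma's F test across the strains had an adjusted p of 0.0246.

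Sparc was lower in the BDIV tumours too, at 12.82 and 13.22 against 13.33 to 14.45 in the F1-hybrid tumours, and Dcn was higher, at 13.42 and 14.80 against 12.52 to 13.85. Neither passed the F test (adjusted p = 0.0831 for Sparc and 0.111 for Dcn, by limma). Both BDIV tumours were low-background arrays, and all but 1 of the other MPNST were high-background. With the background range as a block, the adjusted p was 0.258 for Vcan and 0.251 for Efemp1, so neither passed. The low-background F1-hybrid tumour had 7.37 for Efemp1, a dim value with a raw signal of 137. High-background tumours were close to it, at 7.41, 7.44 and 7.49 in MPNST 7, 2 and 10. The parts of strain and background in these calls were not told apart. Without MPNST 12, the BDIV male, the Vcan call ended (adjusted p = 0.0719), and the Efemp1 call ended when any 1 of 6 tumours was left out.

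The tissue difference was compared between strains that had both tumours and pools. In BDIV rats Efemp1 overlapped between MPNST and pools, with 9.30 and 10.33 in tumours against 10.05 and 10.10 in pools, a difference of -0.26 ± 0.33 (SE). In BDIX rats the tumours had 7.76 and 8.12 against 10.53 and 11.24 in pools, a difference of -3.28 ± 0.34 (SE). The difference between these differences was 3.02 ± 0.47 (SE), with a limma adjusted p of 0.00177. It passed under all 10 other settings that were tried, with adjusted p up to 0.028.

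Dcn showed the same order of strains. BDIV tumours had 13.42 and 14.80 against 14.17 and 14.68 in BDIV pools (-0.32 ± 0.38 SE), and BDIX tumours had 12.43 and 13.12 against 14.66 and 14.88 in BDIX pools (-2.27 ± 0.40 SE). The strains differed by 1.95 ± 0.55 (SE, limma adjusted p = 0.0407), a call lost under 6 of 10 other settings. It was also lost when any of 6 of the 8 arrays was left out in turn, with adjusted p up to 0.162. For Vcan the tissue difference was 3.83 ± 0.26 in BDIV and 5.04 ± 0.27 in BDIX (SE), and their difference of -1.21 ± 0.37 (SE) did not pass (adjusted p = 0.0554). It passed under 4 of 10 other settings (median scaling, an offset of 50, array weights and no sex covariate), with adjusted p of 0.0229 to 0.0412, and without MPNST 11 (-1.66, adjusted p = 0.0137) or nerve 3 (-1.59, adjusted p = 0.00798). For Postn the differences were 5.42 in BDIV and 3.52 in BDIX, apart by 1.90 ± 0.98 (SE, adjusted p = 0.251). For Lum they were 0.08 in BDIV and -1.10 in BDIX, apart by 1.19 ± 0.64 (SE, adjusted p = 0.275).

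Of the 9 genes, 2 passed this test of strains, where 12.7% of all features did (5.37% with the higher and 7.34% with the lower difference in BDIV). Within BDIV, 3 of 9 genes passed between tumours and pools (28.4% of all features), and within BDIX 5 of 9 (24.4%). The BDIX tumours were high-background and the BDIX pools low-background arrays, whereas both BDIV tissues were low-background, so that background range and tissue cannot be told apart within BDIX. Cell type markers differed by strain as well, relative to the mean of all pools. The fibroblast list was at -0.65 and -0.90 in BDIV tumours against -0.26 and -0.23 in BDIV pools, and at -0.73 and -0.93 in BDIX tumours against 0.32 and 0.27 in BDIX pools. The perineurial list was at -0.71 and -0.77 in BDIV tumours against -0.41 and -0.51 in BDIV pools, and at -0.67 and -0.64 in BDIX tumours against 0.34 and 0.62 in BDIX pools. Both lists thus had the larger deficit in BDIX, as Efemp1 and Dcn did. So did the blood and endothelial lists and the Schwann cell and myelin list. The last was at -1.23 and -0.56 in BDIV tumours and at -1.56 and -1.39 in BDIX tumours. The sensory neuron, cartilage and bone, adipocyte and skeletal muscle lists had the larger deficit in BDIV. The part of these lists in the result was not tested.

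**Figure D3:**
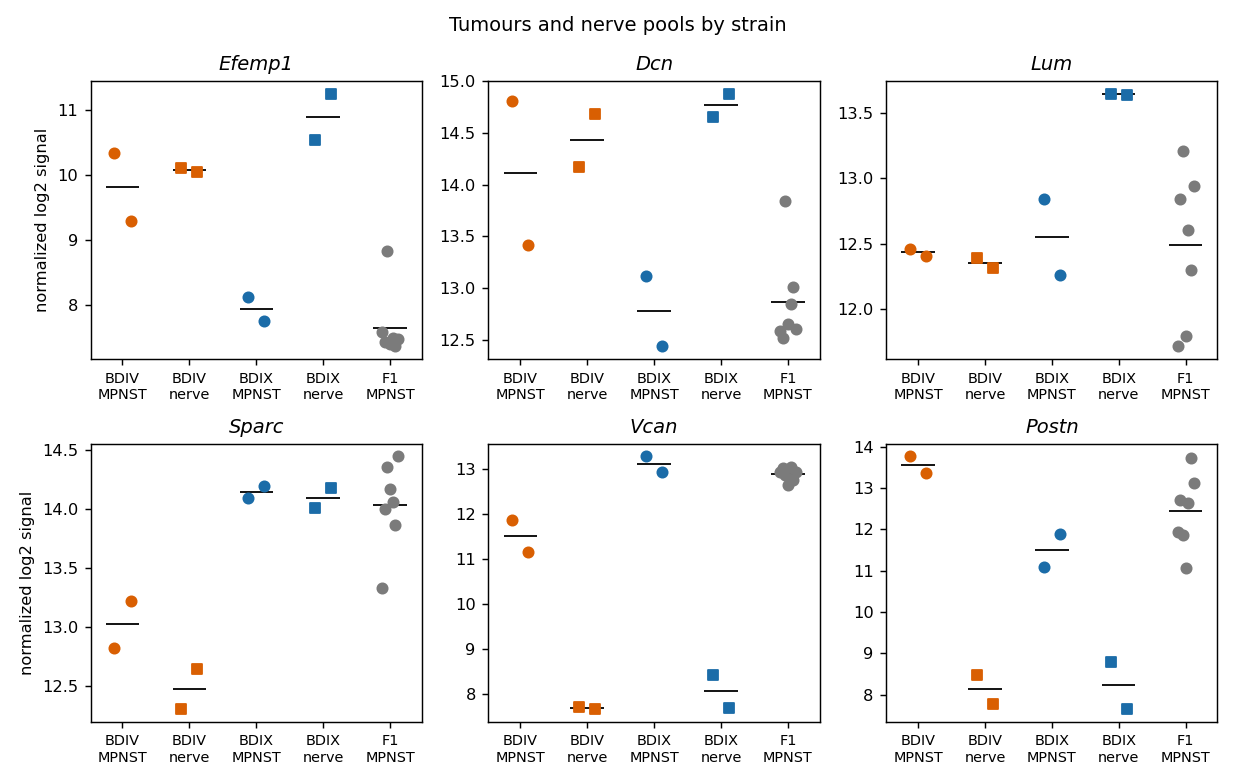
Normalized log2 signal (vertical axes, on a scale of their own for each gene) of 6 matrix genes in BDIV and BDIX tumours (circles) and nerve pools (squares) and in F1-hybrid tumours, with a point per array and a line at each mean. For Efemp1 and Dcn the female BDIV tumour is above the BDIV pools and the male BDIV tumour below them, while the BDIX tumours are far below the BDIX pools. Sparc is low in both BDIV tissues.

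Between male and female MPNST, 0 of the 9 genes passed by limma with strain as a covariate, and 0% of all features passed, with 859 features at an unadjusted p under 0.05. The largest differences of males from females were -0.84 ± 0.24 for Efemp1 (SE, adjusted p = 0.533) and -0.72 ± 0.31 for Dcn (SE, adjusted p = 0.676). Without MPNST 1, a female F1-hybrid tumour, Efemp1 differed by -1.25 and passed (adjusted p = 0.0409).

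The genes differed more between tumours than most features did. Features were not matched for signal level here, and the normalization pulls dim signals together. The SD over the 12 MPNST was 1.12 for Fn1, 1.00 for Postn, 0.94 for Efemp1 and 0.77 for Spp1, against a median SD of 0.17 over all features. Fn1 varied more than 99.2% of all features among the MPNST. Its highest value was 12.98, in an F1-hybrid tumour, and its lowest was 9.57, in another. In nerve, Sparc had the largest SD of the 9 genes at 0.89, more than 98.2% of all features, and its BDIV pools lay below the other 4.

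All 36 pairs of the 9 genes were correlated over the 12 MPNST. Dcn and Efemp1 had the highest Pearson correlation, r = 0.924 (permutation p = 0.00067, adjusted over the 36 pairs 0.0241). Spearman's rho was 0.566 (permutation p = 0.0579, adjusted 0.379), and r was 0.754 without the 2 tumours farthest from the median of Dcn. Within the 9 high-background tumours, of which none was BDIV, r was 0.915. Among these, MPNST 5 stood apart for both genes. It had 13.85 for Dcn and 8.83 for Efemp1, against 12.43 to 13.12 and 7.41 to 8.12 in the others. No other pair passed after adjustment. Dcn and its neighbour Lum had r = 0.299 (permutation p = 0.355, adjusted 0.492).

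For each gene the 2 most similar of 8573 other named genes over the 12 MPNST were taken by Pearson's r, as a description, since the highest of so many values is high by selection. The genes most like Vcan were Tra2b (0.93) and Tmed1 (0.90), which had r of 0.32 and 0.19 within the 9 high-background tumours. Those most like Postn were Map3k3 (0.91) and Wee1 (0.91), and those most like Fn1 were Camk2n1 (0.88) and Tpst2 (0.88). Spp1 was most like Clp1 (0.86) and Tmem176a (0.85), Dcn most like Acer2 (0.94) and Zfp672 (0.93), and Efemp1 most like Adhfe1 (0.94) and Casp4 (0.93). Sparc was most like Rgs12 (0.96) and Rhob (0.94), Bgn most like Cyp4f37 (0.91) and Cdc42ep4 (0.90), and Lum most like Bcl2l2 (0.85) and Ccdc126 (0.82). All these tumours share the array platform, and the likeness of the pairs other than those of Vcan was 0.745 to 0.914 within the high-background tumours.

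Other genes of the matrix were then read from lists of its parts. Of all features 45.4% passed between MPNST and nerve, 24.6% higher and 20.8% lower. Each list count below stands beside these shares, and no list was tested against them. Among 24 tested of 39 other proteoglycans and their link proteins, 4 rose in MPNST, 7 fell and 13 did not pass, with a median difference of 0.02. Agrn, which encodes the basement membrane proteoglycan agrin, rose most (3.10 ± 0.30 SE), followed by Cspg4 (1.65 ± 0.63 SE), the chondroitin sulphate proteoglycan NG2, and Gpc4 (1.32 ± 0.37 SE), a glypican anchored in the cell membrane. Spock2 (-4.38) and Spock1 (-2.596), which both encode testican proteoglycans, fell. Hapln2, which links hyaluronan to proteoglycans at nodes of Ranvier in the mouse brain, fell by 2.75.

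Among 35 tested of 60 other matrix glycoproteins, 13 rose, 10 fell and 12 did not pass, with a median of 0.22. The largest rises were those of Emilin1 (2.92 ± 0.32 SE), an elastic fibre glycoprotein, Ccn2 (2.92 ± 0.32 SE), connective tissue growth factor, and Ecm1 (2.63 ± 0.32 SE), an extracellular matrix glycoprotein. Mfap5, a microfibril glycoprotein, fell by 2.89. Smoc2 (-1.48) and Ltbp1 (-1.35), which holds latent TGF-beta, fell too. In the microtumour Ecm1 was 2.44 above nerve without passing (adjusted p = 0.065), whereas Emilin1 and Ccn2 were 0.18 and 0.28 above it.

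Receptors of the 9 proteins were tested for 10 of 18 genes, of which 5 rose, 2 fell and 3 did not pass, with a median of 0.45. Itga4, an integrin chain that binds fibronectin and osteopontin, rose by 2.70 ± 0.40 (SE). Cd44, the receptor of hyaluronan and osteopontin, rose by 1.86 ± 0.21 (SE) in MPNST and by 1.93 in the microtumour (limma adjusted p = 0.0289). Itgb1, the common beta chain of matrix integrins, rose by 1.28 ± 0.20 (SE). Itgb5 (-0.85) and Itgb6 (-0.31) fell, the last from a probe detected in 0 of 12 MPNST and 6 of 6 pools.

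Sugar chain genes were measured as well. Of 28 tested of 45 genes of glycosaminoglycan chain synthesis, 12 rose, 2 fell and 14 did not pass, with a median of 0.09. Sulf2, a sulphatase that trims heparan sulphate outside the cell, rose by 3.29 ± 0.18 (SE) in MPNST and by 3.37 in the microtumour (limma adjusted p = 0.000128). Ugdh, which makes the UDP-glucuronate of the chains, rose by 1.997 ± 0.20 (SE), and Hs2st1, a heparan sulphate sulphotransferase, by 1.59 ± 0.21 (SE). Hs3st2, another sulphotransferase, fell by 2.38, and Sulf1 fell by 0.06 from a probe detected in 0 of 12 MPNST.

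Hyaluronan genes were tested for 6 of 12, of which 2 rose and 4 did not pass, with a median of 0.06. The risers were Hmmr (1.10 ± 0.17 SE), a hyaluronan-binding protein that also marks dividing cells, and the hyaluronan synthase Has2 (0.10 ± 0.02 SE, detected in 12 of 12 MPNST and 2 of 6 pools). Proteases that cut versican were tested for 4 of 7, and 2 rose, with a median of 0.66 over the 4. Adamts1 rose by 3.97 ± 0.30 (SE), or 15.6-fold, with means of 12.11 in MPNST and 8.14 in nerve, and Adamts9 rose by 1.06 ± 0.23 (SE). Adamts1 was 2.96 above nerve in the microtumour (limma adjusted p = 0.0204). With median scaling, 1 other proteoglycan and 7 genes of glycosaminoglycan chain synthesis rose, 4 chain synthesis genes and 2 hyaluronan genes fell, and the 10 rises and 10 falls of other glycoproteins were near the counts above.

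**Figure D4:**
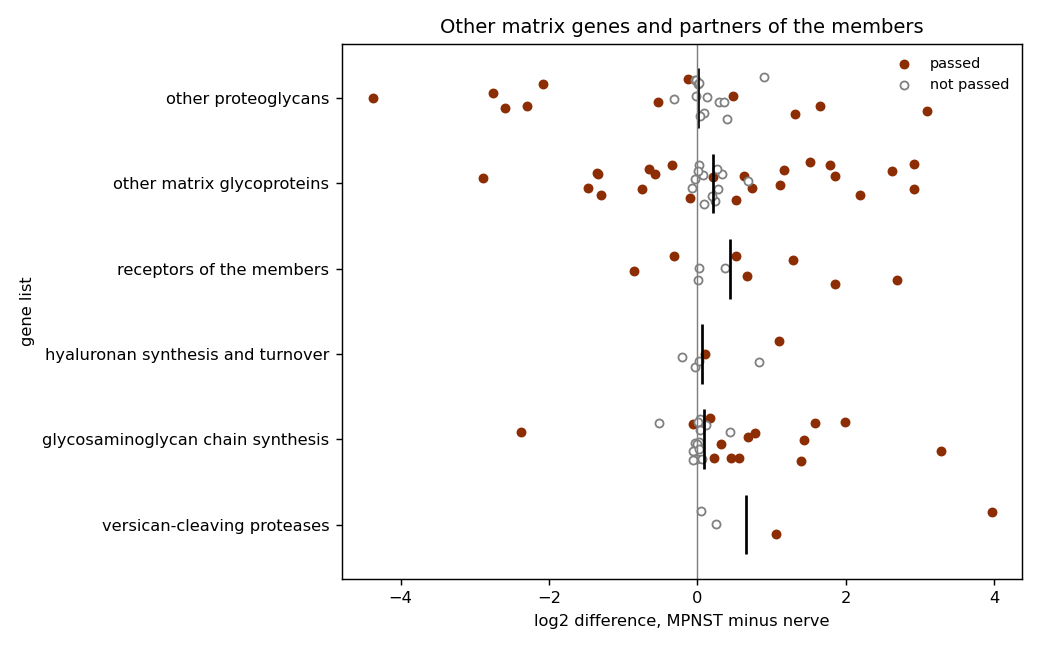
Log2 difference of MPNST minus nerve (horizontal axis) of each tested gene in 6 lists of other matrix genes and partners, with filled points for genes past limma's adjusted p of 0.05 and a vertical bar at each list's median. The list medians lie between 0.02 and 0.66, with Adamts1 at 3.97 and Spock2 at -4.38 as the extremes.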

How the data were processed

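Total RNA was labelled with biotin and hybridized to Illumina rat arrays, 1 for each of 19 samples. Per the submitters' processing notes, the authors used BeadStudio 3.0. The deposited raw table gives an average signal intensity and a detection p-value per probe, per the file headers, with no normalization. The authors also deposited intensity values after background subtraction and scaling, which served as an alternative. A table of nerve averages was not used here. Set against the raw columns, 17 of 19 processed columns matched their own sample, and those of nerve 5 and nerve 6 matched each other's.

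Raw intensities were corrected and quantile normalized to log2 values with neqc (limma 3.58.1, R 4.3.3, offset 16). Probes with a detection p under 0.05 on at least 6 arrays were kept (11816 of 21791), and the brightest probe of a symbol was used, which left 11796 features. Of all probes 13387 had 1 symbol and 8404 none. The number of arrays limits the precision.

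Groups were compared with limma's moderated two-sided test, adjusted by Benjamini-Hochberg over all features, at a threshold of 0.05. MPNST, microtumour and nerve shared 1 fit with 16 residual degrees of freedom. Strain models had sex as a covariate and the sex model had strain. Correlations had permutation tests. The labels name single tumours and pools but give no further detail of the animals. The script was tested on simulated data. The members, the gene lists, the tests and the rule for named genes were chosen with earlier results of these data known. Named were all members with a probe, up to 3 rising and 3 falling called genes of largest difference per list, the 2 likest genes of each member, and marker genes beside a result. Alternatives were another scaling, the authors' values, offsets, filters, probe averaging, array weights, background range, covariates, the replicate block, exchanged pools and leaving out each array.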

Additional observations from a re-analysis of the deposited data

Results flagged for a closer look

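Vcan in nerve 3, a male BDIX pool, had a log2 signal of 8.42, while the other 5 pools had 7.63 to 7.90. The gap to the nearest pool was 0.666 of the range of the 6 pools, above the limit for a sample far from the others. Of 9 such groups looked at, 1 stood out, and chance gives about 1 in 20.

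The difference of MPNST from nerve differed between BDIV and BDIX by 3.02 for Efemp1 and by 1.95 for Dcn on the log2 scale, each past an interaction test. The Dcn call was lost in 6 of 8 cases with 1 array left out, and the Efemp1 call in 0 of 8. Both values were higher in BDIV, where the female tumour lay above the pools and the male tumour below them.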

How the results depend on the processing

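With 2 pools per strain and 1 microtumour, counts of calls in those comparisons rest on few arrays. Of the 9 genes, 7 passed for MPNST against nerve, and 6 to 7 when any 1 array was left out. Within the low-background arrays 3 passed, with fewer arrays. With the replicate number as a block 6 passed, Lum being lost (-0.61). The numbers pair no animals, since the nerve arrays were pools of untreated rats. That block compares only pools and tumours that share a number. Between these, r ran from -0.303 to 0.212 and 1 of 6 tumours correlated best with its own number, which could not decide a pairing. Sparc was -0.074 with the background range as a block, -0.17 within the high-background arrays and -0.11 without all BDIV arrays. For the microtumour against nerve, 2 passed with any 1 pool left out and 1 within the low-background arrays, and Sparc was -0.14 with sex and strain covariates and -0.065 without all BDIV arrays, where Bgn was -0.017. Against the MPNST, 0 passed with any 1 tumour left out, 1 with the background block (Fn1), and 2 without the 2 BDIV tumours or without all BDIV arrays, settings chosen after seeing the data. For BDIV against BDIX nerve, 0 to 1 passed with a pool left out, and 1 with median scaling, with no detection filter and in a fit of all arrays, against 2. For congenic against BDIX nerve, 0 passed with any pool left out, and 2 with the authors' values (Postn and Fn1). For strain in MPNST, 0 to 3 passed with a tumour left out, 0 with the background block and 4 in a fit of all arrays. For sex, 0 to 1 passed with a tumour left out. For the tissue difference of BDIV against BDIX, 1 to 2 passed with an array left out, and 1 with the authors' values, with no detection filter, with the background block and with nerve 5 and nerve 6 exchanged. The cause of these changes was not tested.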
